A study of Mus musculus with 18 samples.

Results

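Mast cells without ST2, the receptor chain that binds the cytokine IL-33, were exposed to IL-33 for 4 h and compared with unstimulated cells of the same genotype. The comparison used 6 of the 18 arrays of the study, 3 titled as ST2KO cells with IL-33 and 3 titled as unstimulated ST2KO cells, paired by replicate number. It asks what the IL-33 preparation does to cells that lack its receptor. The cells of all 18 arrays were mast cells derived from marrow of 4 to 6 week old mice of strain C57BL/6J, and these 6 shared the genotype ST2KO, labelled with no further detail of the allele. The arrays used for reference were 3 of wild-type (WT) cells with IL-33 for 4 h, 3 of unstimulated WT cells, and 3 of ST2KO cells stimulated through IgE for 4 h. A further 3 arrays of WT cells stimulated through IgE for 4 h entered no comparison. They entered the normalization, the choice of the probes tested and the estimate of the spread. The dose of IL-33 and the time in culture of the unstimulated cells are not given in the sources used here. The labels do not say whether arrays of a group came from separate mice or cultures, so the p-values measure the spread between these samples only.

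IL-33 belongs to the IL-1 family and acts as an alarm signal released from damaged epithelial and stromal cells. It binds ST2, encoded by Il1rl1, which pairs with the accessory chain IL-1RAcP, encoded by Il1rap. The complex signals through the adaptor MyD88 and IRAK kinases to NF-kB and MAP kinases, and in mast cells it induces cytokines and chemokines without the release of granules that IgE crosslinking causes. Crosslinked IgE signals through the receptor FceRI and its kinases, which do not need ST2.

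No gene passed the threshold in ST2KO cells. Of 10529 genes tested, 0 were higher and 0 were lower with IL-33 at an adjusted p of 0.05 (0% in each direction, limma with Benjamini-Hochberg adjustment, 3 pairs). The smallest adjusted p was 0.9997, and 390 genes had an unadjusted p under 0.05 (3.7%), of which 175 were higher and 215 lower. The log2 changes ran from -0.71 to 0.77, with the 1st and 99th percentiles at -0.40 and 0.40 and a median of -0.0093, so no estimate reached 2-fold. For 10427 genes (99%) the 95% interval of the change lay within 2-fold in either direction. A fit of the 6 ST2KO arrays alone also called 0 genes, with a smallest adjusted p of 0.476, and placed 10521 genes (99.9%) within 2-fold. Both counts include genes that passed the detection filter through other groups and were below detection in ST2KO cells. For those genes the interval does not measure a change.

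WT cells on their own arrays gave 1419 genes higher (13.5%) and 1896 lower (18%) with IL-33, of which 386 and 450 changed at least 2-fold. The difference between the ST2KO and the WT change, tested as an interaction, passed for 1639 genes, higher in ST2KO cells for 941 (8.94%) and lower for 698 (6.63%). Of these 1639 genes, 1601 were also called in WT cells, by a test that shares the WT arrays. ST2KO cells did change transcripts with IgE, which was compared with the same unstimulated ST2KO arrays. IgE raised 1592 genes (15.1%) and lowered 1966 (18.7%) in them, 446 and 447 at least 2-fold. Single arrays and pairs moved these counts. The difference passed for 1001 or 1055 genes without WT IL-33 array 1 or 2, for 1071 or 1078 without WT unstimulated array 1 or 2, for 747 or 835 without the WT pair 1 or 2, and for 1050 or 1072 without the ST2KO pair 1 or 2. The WT count fell to 1827 or 1886 without its pair 1 or 2 and to 2198 without WT IL-33 array 1, and the IgE count to 2219 without the ST2KO pair 2.

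**Figure D1:**
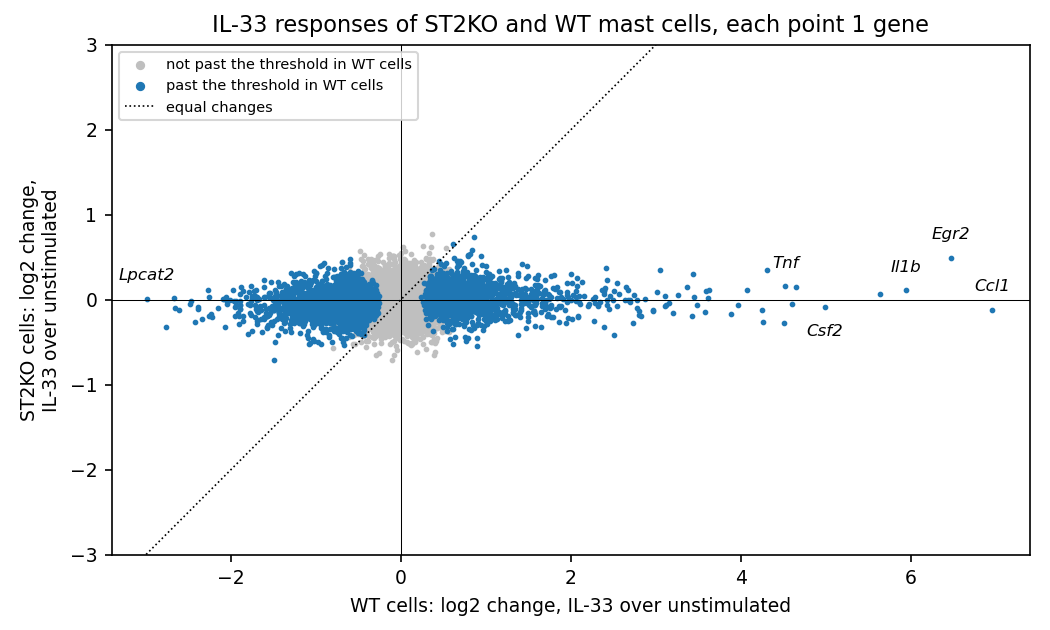
Log2 change with IL-33 in ST2KO cells (vertical axis) against that in WT cells (horizontal axis), each point 1 of 10529 genes, coloured by the call in WT cells; the dotted line marks equal changes. The ST2KO changes stay between -0.71 and 0.77 along the whole WT range, which reaches 6.96 for Ccl1.

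The arrays numbered 3 stood apart from the others within the ST2KO cells. In unstimulated cells 745 genes were over 2-fold higher and 720 lower on array 3 than on the mean of arrays 1 and 2, whereas arrays 1 and 2 differed over 2-fold for 13 genes. With IL-33 the counts were 774 and 736, against 32 between arrays 1 and 2. Prss34, a basophil protease gene, read 9.02, 9.0 and 4.67 on the unstimulated arrays 1 to 3 and 8.92, 9.35 and 4.95 with IL-33, in normalized log2 intensity. Array 3 was thus the low one with and without IL-33, and the comparison within pairs sets it against its own partner. Without the arrays numbered 3 the ST2KO comparison again called 0 genes. Across the 6 arrays the median intensity was 87.5 to 97.9, and 35.8% to 36.8% of the probes were detected, that is, had a detection p under 0.05.

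Defining mast cell genes were detected on all 6 ST2KO arrays. These were the receptor genes Kit, Fcer1a and Ms4a2, the protease gene Cpa3, the transcription factor gene Gata2 and Hdc, which encodes the histamine-forming enzyme, at levels from 10.8 to 15.0. The neutrophil genes S100a8, S100a9 and Elane and the T cell gene Cd3e were detected on 0 of the 6. Of the macrophage and dendritic cell genes, Adgre1 was detected on all 6 arrays, Csf1r, C1qa and H2-Aa on 2 and Itgax on 1, with H2-Aa reaching 8.01. The basophil genes Mcpt8 and Prss34 were detected on 6 and 5 arrays, at levels of 6.12 to 10.25 and 4.67 to 9.35 over the 6. Of the megakaryocyte and erythroid genes, Itga2b was detected on 6, Hba-a1 on 5 and Pf4 on 1. Itga2b read 10.66 to 12.36, which overlaps the range of the mast cell genes. Il1rl1 was not analysed here, so the knockout itself was not checked on the arrays.

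The 3 pairs shared little of their change across genes. Within a pair the arrays with and without IL-33 correlated at 0.994, 0.994 and 0.993 across genes. Pair 1 had 4 genes over 2-fold higher and 1 lower, pair 2 had 6 and 3, and pair 3 had 21 and 16. In all, 51 genes passed 2-fold in at least 1 ST2KO pair, and 0 passed it in the same direction in at least 2 pairs. In WT cells 183 genes were over 2-fold higher and 142 lower in all 3 pairs. ST2KO cells with IgE had 203 and 195 such genes. The gene-wise differences of the ST2KO pairs with IL-33 correlated with each other at 0.048, 0.089 and 0.024, and those of the WT pairs at 0.885, 0.668 and 0.670. These correlations are across genes, which are not independent replicates, and are given as a description. The standard deviation of the differences over genes was 0.262, 0.264 and 0.287 in the ST2KO pairs and 0.736, 0.716 and 0.516 in the WT pairs.

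**Figure D2:**
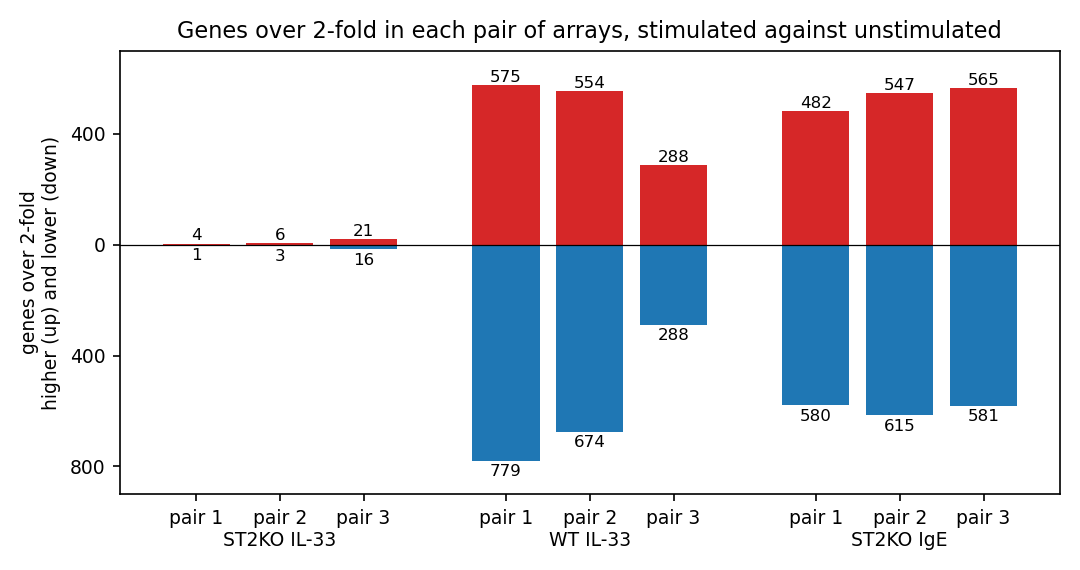
Number of genes over 2-fold higher (upward bars) and lower (downward bars) in each pair of arrays with the same replicate number, for IL-33 in ST2KO cells, IL-33 in WT cells and IgE in ST2KO cells. The ST2KO pairs with IL-33 hold 1 to 21 genes in a direction, and the other pairs hold 288 to 779.

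Groups that did not overlap, with all 3 IL-33 arrays above or below all 3 unstimulated arrays, were found for 534 genes (5.07%) in ST2KO cells, 248 higher and 286 lower. In WT cells 1425 genes were higher and 1747 lower by the same measure. The measure ignores the pairing. Where array 3 stood apart, groups could overlap although every pair changed in the same direction, as for Ptprcap below. Overlap is thus given as a description and does not show that a gene stayed unchanged. Genes detected on all 3 IL-33 arrays and on 0 unstimulated arrays numbered 13 in ST2KO cells, with 10 the other way round. WT cells had 41 and 111.

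None of the 12 genes that IL-33 raised most in WT cells passed in ST2KO cells. These genes, and the largest WT falls, were picked on the WT arrays that also enter the difference between genotypes, so their differences are given as a description. Ccl1, a chemokine for T cells, read 5.21, 4.97 and 6.49 on the unstimulated ST2KO arrays and 4.55, 5.10 and 6.66 with IL-33. Array 3 was the highest in both groups, and the groups overlapped. The ST2KO change was -0.12 with a standard error (SE) of 0.92. The WT change was 6.96 with an SE of 0.92 (125-fold, adjusted p = 3.23e-05, limma), and the difference had an adjusted p of 0.00174. The estimate of the spread takes in the stimulated arrays of the other groups, where Ccl1 rose less in pair 3. In the fit of the 6 ST2KO arrays alone the SE of Ccl1 was 0.18, and its 95% interval ran from -0.50 to 0.26. The same gene rose by 5.75 with IgE in ST2KO cells, from the same unstimulated arrays (adjusted p = 0.000174, limma).

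Il1b encodes the inflammatory cytokine IL-1 beta. Its levels were 8.21, 8.44 and 6.95 without and 8.38, 8.38 and 7.17 with IL-33 in ST2KO cells. The change of 0.11 had a 95% interval from -0.16 to 0.39 in the 6-array fit. WT cells rose from 7.57, 7.74 and 8.38 to 14.26, 14.25 and 13.03, a change of 5.95 (SE 0.39, adjusted p = 5.13e-08, limma). With IL-33 every WT array lay above all 6 ST2KO arrays, while the unstimulated arrays of both genotypes overlapped. IgE raised Il1b by 1.24 in ST2KO cells (adjusted p = 0.0223, limma).

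Csf2, the gene of the growth factor GM-CSF, was detected on 1 of 3 arrays in each ST2KO group. It read 4.57, 4.45 and 4.95 without IL-33 and 4.21, 4.52 and 5.0 with it, near the lowest detected signals of the arrays, which were 4.67 to 4.71. Tnf, the gene of tumour necrosis factor, was likewise detected on 1 of 3 arrays in each group, at 4.47, 4.37 and 5.07 without and 4.58, 4.44 and 5.36 with IL-33. At these levels a change below the detection limit could not be seen. WT cells with IL-33 reached 9.84, 9.79 and 8.80 for Csf2 and 8.96, 9.19 and 9.16 for Tnf, and ST2KO cells with IgE rose by 2.08 and 2.81 (adjusted p = 0.0116 and 0.000148, limma). The rises with IgE start from readings near or below the lowest detected signals, so their sizes are uncertain.

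Il13 and Il6 are cytokine genes that IL-33 is known to induce in mast cells. Il13 read 4.91, 5.27 and 5.75 on the unstimulated ST2KO arrays and 5.21, 5.03 and 6.59 with IL-33, a change of 0.30 (SE 0.43). On arrays 1 and 2 these readings lay near the lowest detected signals, 4.67 to 4.71. Pair 2 went down by 0.24 and pair 3 went up by 0.84, so the pairs did not have one sign. In WT cells Il13 rose by 3.43 (adjusted p = 1.85e-05, limma), and the difference between genotypes passed (adjusted p = 0.00228). Il6 read 8.16, 8.12 and 7.19 without and 8.27, 7.94 and 6.89 with IL-33 in ST2KO cells, a change of -0.13 (SE 0.19), against a rise of 2.81 in WT cells. Il4, the cytokine gene that drives type 2 immunity, read 10.31, 10.20 and 11.86 without and 10.13, 10.16 and 11.76 with IL-33. The Il4 change was -0.11 in ST2KO and 0.70 in WT cells, and the difference of -0.80 passed at an adjusted p of 0.0138 but was not called without the WT pair 2 (a difference of -0.62), without WT unstimulated array 2 or WT IL-33 array 1 or 2 (-0.66 to -0.70), or without the ST2KO pair 1 (-0.77). Median scaling also ended that call, at a difference of -0.64 (adjusted p = 0.0855, limma).

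**Figure D3:**
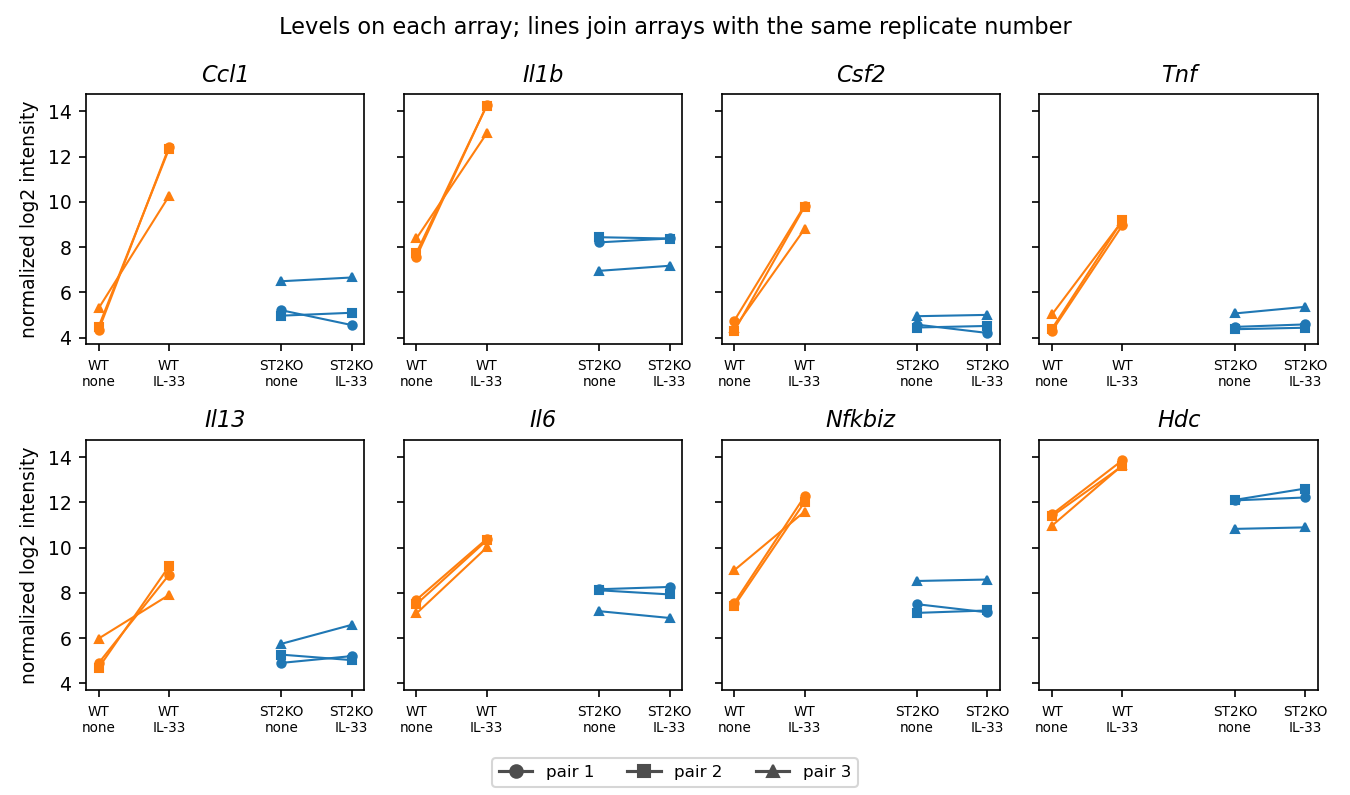
Normalized log2 intensity of 8 genes on each of 12 arrays, without stimulus and with IL-33, for WT cells (orange) and ST2KO cells (blue); lines join arrays with the same replicate number. All WT lines rise, and the ST2KO lines change by no more than 0.84, the rise of Il13 in pair 3.

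None of the chemokine genes tested passed in ST2KO cells with IL-33. Ccl3, the gene of MIP-1 alpha, read 7.11, 7.87 and 9.15 without and 7.37, 7.44 and 8.96 with IL-33 in ST2KO cells. Its change of -0.12 stood beside a WT rise of 4.25, and the difference passed (adjusted p = 0.0119). Leaving out either of the WT pairs 1 and 2, WT unstimulated array 2 or ST2KO IL-33 array 2 ended that call, with differences of -4.21, -4.01, -3.88 and -3.90, as did robust eBayes (adjusted p = 0.0952, limma). Ccl5, the gene of RANTES, was lower by 0.26, 0.39 and 0.19 in the 3 ST2KO pairs, and its change of -0.28 (SE 0.41) did not pass. Of the 16 chemokine genes tested, 8 rose in WT cells, where 13.5% of all genes did, and 10 rose with IgE in ST2KO cells, where 15.1% of all genes did. With IL-33 the ST2KO changes of the 16 ran from -0.28 to 0.16, with a median of 0.02.

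The remaining large WT rises did not pass in ST2KO cells either. Egr2, an early-response transcription factor gene, had the largest ST2KO estimate of the 12, at 0.49 (95% interval -0.18 to 1.16). Its levels were 5.04, 5.59 and 4.78 without and 5.68, 6.37 and 4.83 with IL-33. The groups overlapped, and arrays 1 and 2 were higher by 0.64 and 0.79. In the 6-array fit the interval of Egr2 was 0.12 to 0.86, above 0 before any adjustment over genes. The WT rise was 6.48, and the difference of -5.98 passed (adjusted p = 1.37e-06, limma).

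Gadd45b, a stress-response gene, changed by 0.06 in ST2KO and by 5.64 in WT cells, and by 0.12 and 3.64 on its other probe. Traf1, an adaptor of TNF receptors, changed by 0.15 against 4.65 (-0.32 against 4.93 on its other probe), and Tnfrsf9, the gene of the co-stimulatory receptor 4-1BB, by 0.36 against 4.31 (0.19 against 3.38 on its other probe). The 6-array interval of Tnfrsf9 was 0.01 to 0.70, since pairs 1 and 2 were higher by 0.28 and 0.79. The survival genes Bcl2a1d and Bcl2a1b, near-identical copies whose probes may not tell them apart, changed by -0.05 and -0.26 against 4.60 and 4.27. A second Bcl2a1d probe gave 0.13 against 1.02. All these differences between genotypes passed, with adjusted p from 2.63e-05 for Bcl2a1b to 0.00149 for Tnfrsf9 (limma).

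None of the 6 genes that IL-33 lowered most in WT cells passed in ST2KO cells. Lpcat2 encodes an enzyme that makes platelet-activating factor. It read 8.28, 8.56 and 9.03 without and 8.21, 8.25 and 9.45 with IL-33, so array 3 went up and the other arrays went down. Its change was 0.01 in ST2KO and -2.99 in WT cells, and with IgE it changed by -3.16 in ST2KO cells. Its place among the largest WT falls rests on 1 of 3 probes, since the others gave WT changes of -1.25 and -1.18 and ST2KO changes of -0.18 and -0.03. Sult1a1, a phenol sulfotransferase gene, showed how the pairs held together: it read 10.40, 10.89 and 5.63 without and 10.28, 10.92 and 5.68 with IL-33. Array 3 lay far below the others in both groups, and the pair differences were -0.12, 0.03 and 0.05.

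Cited4, Mrvi1, Lrrc36 and Pigz changed by 0.02, -0.10, -0.12 and -0.05 in ST2KO cells, against -2.67, -2.66, -2.60 and -2.49 in WT cells. All 6 differences of the WT falls passed, with adjusted p up to 0.0145 for Sult1a1 (limma). The Cited4 call was lost without either of the WT pairs 1 and 2, at differences of 2.08 and 2.38, and with robust eBayes (adjusted p = 0.0742, limma). That of Sult1a1 was lost without the WT pair 1 or 2, the ST2KO pair 2, WT unstimulated array 1 or 2, WT IL-33 array 2, ST2KO unstimulated array 3, or ST2KO IL-33 array 1 or 2, at differences of 1.90 to 2.44. It was also lost with robust eBayes (adjusted p = 0.0808) and without background correction, at a difference of 1.49 (adjusted p = 0.1275, limma).

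Over all 386 genes raised at least 2-fold in WT cells, the median ST2KO change was 0.013, beside -0.0093 over all genes. The medians of the 3 pairs were 0.006, 0.039 and -0.006, and single genes ran from -0.42 to 0.49. The ST2KO interval lay within 2-fold for 359 of the 386, and for all 386 in the 6-array fit. Of the 386 genes, 206 (53.4%) had an ST2KO change above 0, against 47.6% of all genes. Of the 386, 313 were detected on all 3 unstimulated ST2KO arrays and 319 on all 3 with IL-33. Without IL-33 21 of them were detected on 0 ST2KO arrays, and with it 17. For genes below detection an interval within 2-fold does not show that the transcript stayed unchanged. In ST2KO cells with IgE 248 of the 386 rose and 18 fell, where 15.1% of all genes rose and 18.7% fell.

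The 450 genes lowered at least 2-fold in WT cells had a median ST2KO change of -0.048, with medians of -0.052, -0.114 and -0.011 in the 3 pairs. All 3 pairs were thus below the median of all genes, by small amounts. The median was -0.0097 without ST2KO unstimulated array 2, -0.0869 without ST2KO unstimulated array 3 and -0.0116 with median scaling. The share of these genes with an ST2KO change below 0 was 62.9% (283 genes), against 52.4% of all genes. No test was made of this share, since genes are not independent replicates. The lowest single change was -0.71 and 441 of the 450 intervals lay within 2-fold. IgE lowered 384 of the 450 in ST2KO cells and raised 2, beside 18.7% and 15.1% of all genes. Across all genes the ST2KO change with IL-33 correlated with the WT change at 0.107, a description across genes that share the arrays of their genotype.

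Gene lists were described by their counts and medians, and 0 members of any of 27 lists passed in ST2KO cells with IL-33. Of the NF-kB pathway and target genes, which IL-33 reaches through MyD88, 23 were tested. Their ST2KO changes ran from -0.26 to 0.25 with a median of -0.05, beside -0.0093 for all genes. In WT cells 20 of the 23 rose and 0 fell, with a median of 1.73, where 13.5% of all genes rose and 18% fell. The ST2KO change was lower than the WT change for 19 by the test of the difference, as for 6.63% of all genes. Nfkb2, a subunit gene, read 6.37, 6.15 and 6.95 without and 6.48, 6.24 and 6.88 with IL-33 in ST2KO cells. Nfkbiz, the gene of the inducible regulator IkB zeta, read 7.50, 7.12 and 8.53 without and 7.14, 7.23 and 8.59 with it. Both overlapped between groups, with changes of 0.04 and -0.06 against 3.11 and 3.96 in WT cells. Tnip1, which encodes a partner of the inhibitor A20, was lower in all 3 ST2KO pairs, by 0.39, 0.12 and 0.24, with an unadjusted p of 0.15 from the fit of all arrays. Its other probes gave ST2KO changes of 0.49, -0.08 and -0.09.

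Promoters of the NF-kB list genes are shown because 20 of these genes rose in WT cells and 0 passed in ST2KO cells. The motif GGNNTTTCC, an NF-kB-like pattern, was searched on both strands in the 250 bases before the start site in RefSeq promoter windows of GRCm38.p6. It was present for 7 of 17 genes of the list that rose in WT cells with a passing difference and had a window: Bcl3, Icam1, Nfkb2, Nfkbia, Rel, Tnfaip2 and Tnfaip3. Of all 32851 windows 4.93% held it, and of 8587 tested genes with a window 6.36% did. A match describes the letters only and no binding was measured. The 3 with the largest WT change are printed on the strand of the gene, with the matches in capitals. Nfkbia, the gene of the NF-kB inhibitor IkB alpha, lies on the minus strand, with the window at chr12:55492648-55492897 and 2 matches. Tnfaip2, a TNF-induced gene, lies on the plus strand, with the window at chr12:111442411-111442660. Nfkb2 lies on the plus strand, with the window at chr19:46304487-46304736.
Nfkbia: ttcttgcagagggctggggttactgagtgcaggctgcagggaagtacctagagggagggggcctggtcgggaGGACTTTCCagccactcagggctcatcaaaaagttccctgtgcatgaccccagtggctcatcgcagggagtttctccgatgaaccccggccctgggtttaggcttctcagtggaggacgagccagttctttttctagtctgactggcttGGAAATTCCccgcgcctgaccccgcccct
Tnfaip2: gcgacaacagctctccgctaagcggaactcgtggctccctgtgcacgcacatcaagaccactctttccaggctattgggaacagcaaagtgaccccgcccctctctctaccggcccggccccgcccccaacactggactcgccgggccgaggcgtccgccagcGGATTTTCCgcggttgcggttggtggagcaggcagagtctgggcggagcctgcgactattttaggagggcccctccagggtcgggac
Nfkb2: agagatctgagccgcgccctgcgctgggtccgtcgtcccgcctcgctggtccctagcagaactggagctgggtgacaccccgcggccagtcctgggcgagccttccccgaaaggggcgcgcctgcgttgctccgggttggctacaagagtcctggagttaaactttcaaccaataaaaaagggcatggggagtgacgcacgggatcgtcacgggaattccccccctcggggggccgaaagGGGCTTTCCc
The ST2KO changes of these genes were -0.16, -0.19 and 0.04, and their WT changes 3.89, 3.42 and 3.11. Among the list genes with the motif the ST2KO changes ran from -0.19 to 0.12, and among those without it from -0.26 to 0.25.

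No gene of the receptor pathway itself passed in ST2KO cells. Il1rap read 5.07, 4.81 and 4.92 without and 4.63, 4.93 and 5.20 with IL-33, detected on 3 and 2 arrays, and changed by -0.01 (SE 0.23). Myd88 read 11.68, 11.88 and 11.30 without and 11.88, 11.84 and 11.38 with IL-33, a change of 0.08 (SE 0.12). The groups overlapped for both genes. The 18 pathway genes tested had changes from -0.15 to 0.13, and all 18 intervals lay within 2-fold. In WT cells 2 of the 18 rose and 3 fell, near the 13.5% and 18% of all genes.

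Bacterial endotoxin signals through TLR4, which also uses MyD88, so genes of that receptor and genes it induces were also listed. Tlr4 was expressed, at 9.05, 9.09 and 7.18 without and 8.74, 8.96 and 7.62 with IL-33, and changed by 0.00 (95% interval -0.31 to 0.32). Ly96, the gene of its partner MD-2, was detected on all 6 arrays and changed by 0.15. Cd14, the co-receptor gene, was detected on 1 unstimulated array and on 0 with IL-33. Of the 15 listed genes tested, 0 passed in either direction, with a median fitted change of -0.06. Acod1, an enzyme gene induced by endotoxin in macrophages, was detected on 1 array with IL-33 and on 0 without. Cd14 and Acod1 had the lowest and the highest fitted change of the list, and with a group below detection neither is a measured change. The 16 interferon-response genes tested likewise had 0 calls in ST2KO cells and a median of -0.06. In WT cells with IL-33, 7 of the 15 genes of the endotoxin list rose and 2 fell. Of the 16 interferon-response genes 5 rose and 0 fell there, where 13.5% of all genes rose and 18% fell. Whether the preparation held endotoxin was not tested.

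No effector or identity gene of mast cells passed in ST2KO cells with IL-33. Hdc read 12.09, 12.11 and 10.83 without and 12.22, 12.61 and 10.90 with IL-33, higher in all 3 pairs by 0.13, 0.50 and 0.07. Its change of 0.23 had an interval from -0.23 to 0.69, and from 0.03 to 0.43 in the 6-array fit, neither of which is adjusted over genes. WT cells rose by 2.42 and ST2KO cells with IgE by 2.24. The other Hdc probe changed with IL-33 by 0.36 in ST2KO cells, not passing, and by 2.85 in WT cells. Kit, the receptor of stem cell factor, changed by -0.03, Fcer1a, the IgE-binding chain of FceRI, by -0.09, and Gata2 by -0.12. A further Kit probe gave 0.66 and did not pass. The 23 identity genes had a median of -0.03, the 18 genes of IgE receptor signalling a median of 0.02, and the 11 genes of eicosanoid and histamine synthesis a median of -0.02.

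**Figure D4:**
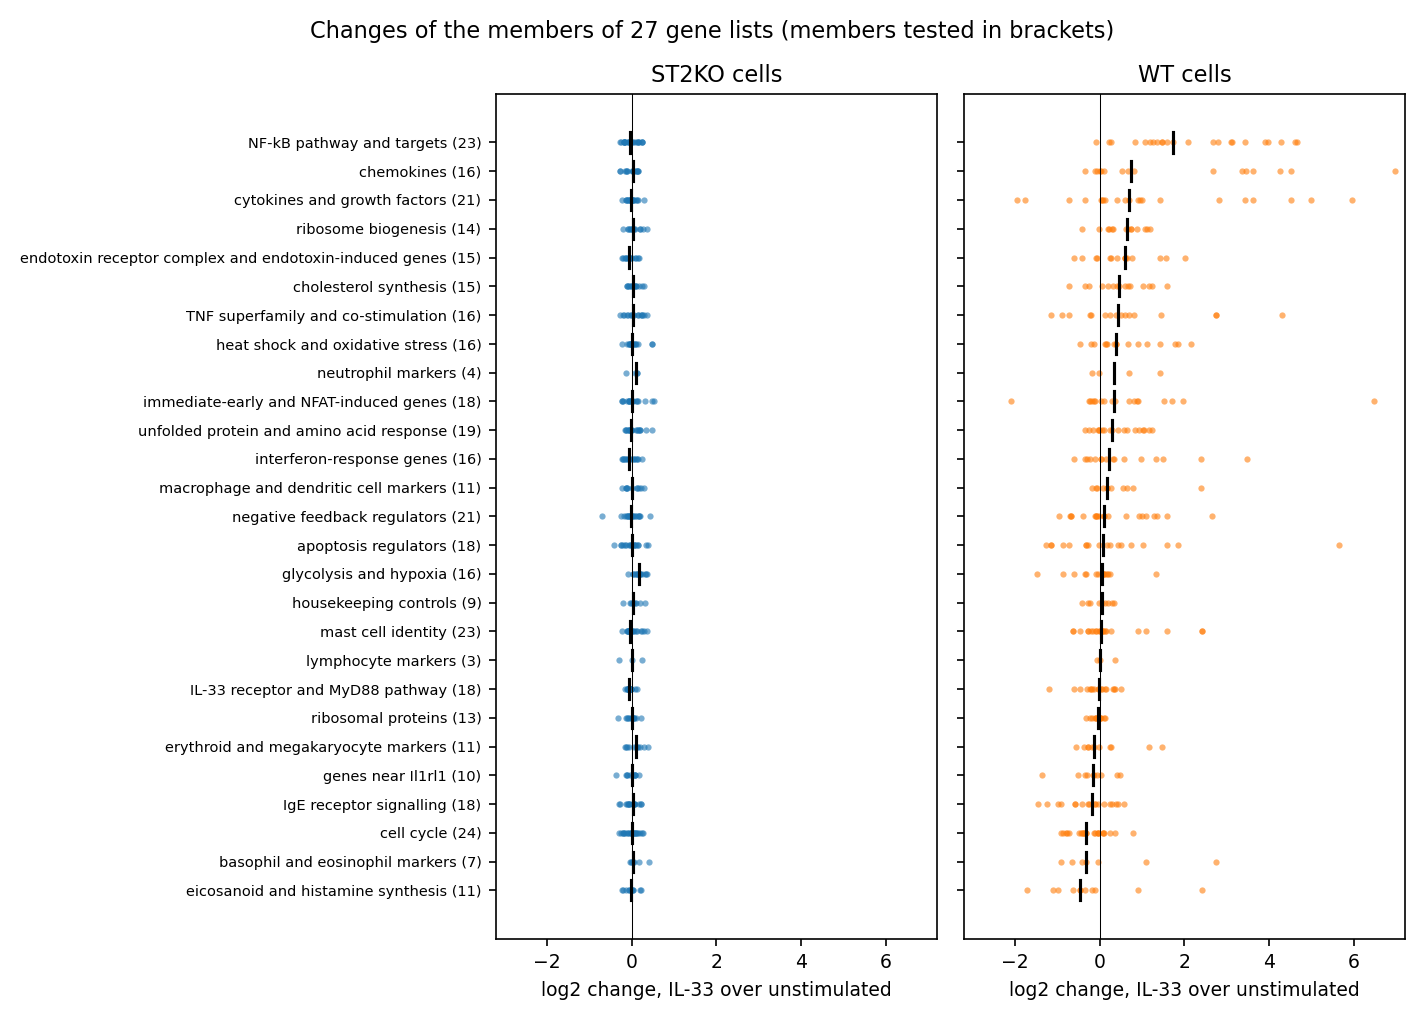
Log2 change with IL-33 of each tested member (points) of 27 gene lists, with the median as a black bar, in ST2KO cells (left) and WT cells (right), ordered by the WT median. Members stay between -0.70 and 0.54 in ST2KO cells, and in WT cells the NF-kB list has the highest median, 1.73.

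Glycolysis and hypoxia genes had the highest median of the lists in ST2KO cells, 0.17, from pair medians of -0.01, 0.19 and 0.29. None of its 16 members passed. Gapdh, a glycolytic enzyme gene, read 12.86, 12.77 and 12.79 without and 13.01, 12.98 and 13.04 with IL-33, so its groups did not overlap. Its change was 0.20 (SE 0.08, unadjusted p = 0.0306, not passing). Pgk1, another enzyme of the pathway, changed by 0.31 (SE 0.13, unadjusted p = 0.0263, not passing), with groups that also did not overlap. Its pairs differed by 0.12, 0.19 and 0.63, and its other probe gave -0.12. Ldha changed by 0.03 and overlapped. In WT cells 1 of the 16 rose and 3 fell, where 13.5% and 18% of all genes did.

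The 10 genes named for the smallest p-values, 5 in each direction of the fitted change, did not pass. Ptprcap, which encodes a protein associated with the phosphatase CD45, read 7.38, 7.31 and 4.76 without and 8.31, 7.85 and 5.61 with IL-33. Each pair was higher, by 0.93, 0.54 and 0.84, although the groups overlapped through array 3. The change of 0.77 (SE 0.16) had the smallest unadjusted p of all genes, 0.000167. Its WT change of 0.37 did not pass, and the difference between genotypes did not pass either (adjusted p = 0.25, limma). IgE raised Ptprcap by 1.73 from the same unstimulated arrays.

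Arpc1a, a subunit of the actin-nucleating Arp2/3 complex, read 10.69, 10.95 and 10.66 without and 11.21, 11.30 and 11.11 with IL-33, and its groups did not overlap. It changed by 0.44 (unadjusted p = 0.000755, not passing), but its other probes gave 0.32 and -0.04. Etf1, the translation termination factor gene, read 10.64, 10.40 and 10.33 without and 10.20, 10.07 and 9.78 with IL-33, a change of -0.44 with groups that did not overlap (unadjusted p = 0.00116, not passing). Spidr, a DNA repair scaffold gene, was detected on all 3 unstimulated arrays and on 0 with IL-33, at least 1.46-fold lower (unadjusted p = 0.00175, not passing).

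The other named estimates were 0.64 for B3gat2, 0.59 for Gmppb and 0.55 for Hspbp1 among the rises, and -0.63 for Ankrd13d, -0.53 for Ddb1 and -0.41 for Dennd10 among the falls. Gmppb, an enzyme gene of GDP-mannose synthesis, was the one of these 10 genes that rose in WT cells, by 0.84 (adjusted p = 0.00209, limma). For Arpc1a, Etf1 and Ddb1 the difference from WT cells passed, at adjusted p of 0.03, 0.00592 and 0.0436 (limma), although neither genotype's own change did. The differences were 0.51, -0.70 and -0.63. Arpc1a, Etf1 and Ddb1 were picked for small p on the ST2KO arrays that also enter the difference, so these differences are given as a description. Over the alternatives run, the adjusted p of these differences reached 0.164, 0.197 and 0.466. In ST2KO cells the smallest adjusted p that any of the 10 genes reached over the alternatives was 0.139, for Ddb1. Arpc1a, Etf1 and Ddb1 belong to 38 genes whose difference passed without a call in WT cells. Of the 38, 29 had an unadjusted p under 0.05 in ST2KO cells, beside 3.7% of all genes. A passing difference without a WT call selects for a large ST2KO change, so this share is a description only.

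**Figure D5:**
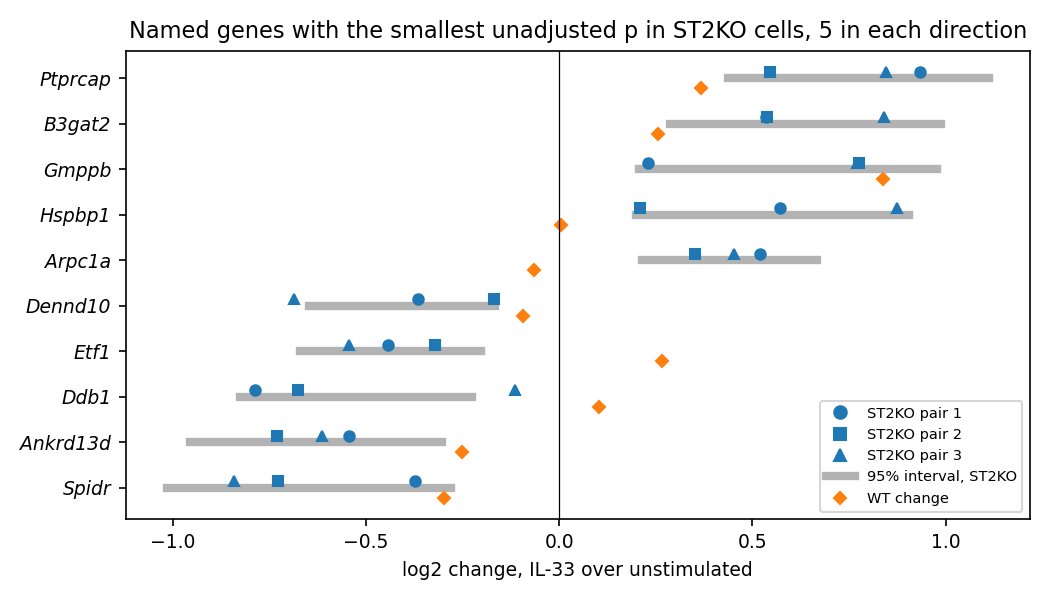
Log2 change with IL-33 in each ST2KO pair (blue symbols), the 95% interval of the ST2KO change (grey) and the WT change (orange) for the 10 named genes with the smallest unadjusted p in ST2KO cells. The ST2KO changes run from -0.65 to 0.77, none passed the threshold, and the WT changes run from -0.30 to 0.84.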

How the data were processed

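RNA came from QIAGEN RNeasy extractions and carried a biotin label added by the Illumina protocol, per the labels. The deposited table gave each of 45281 probes an unnormalized intensity on 18 bead arrays and a p-value of detection, per the file headers. A second deposited table held log2 values and served as an alternative. Its normalization, the slides and the scan dates are not given in the sources used here. ST2KO IgE replicate 3 held an intensity for 10012 probes, so its probes were ranked by the authors' log2 table and given values from the distribution of the 17 complete arrays. It enters no group of the ST2KO IL-33 comparison but enters the estimate of the spread.

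Intensities were background corrected and quantile normalized with the neqc function (limma 3.58.1, R 4.3.3, offset 16), which inferred negative controls from detection p-values, and are given on a log2 scale. Kept were 19514 probes whose detection p was under 0.05 on 3 or more complete arrays, of which 16637 carried 1 gene symbol in the probe table. The 2877 others were tested only as a count. The probe of highest mean level stood for each of 10529 genes. One limma model of all 18 arrays blocked arrays by their number, separately in each genotype, and fitted the stimulus effects within genotype. The labels do not say whether arrays of the same number shared a culture. The model used a trended eBayes, left 8 residual degrees of freedom, and applied Benjamini-Hochberg adjustment over all genes at 0.05. The median 95% interval of an ST2KO change reached 0.353 log2 units to either side, which the number of arrays limits. A gene with no detected array in a group is given as a bound against the lowest detected level.

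Within ST2KO cells the residuals of IL-33 and unstimulated arrays with the same number correlated at 0.787, 0.727 and 0.918, and in WT cells at 0.521, 0.565 and 0.701. Each array correlated best with its own number. Pairing by number was part of the comparison as set and did not rest on this check. The margin was small between arrays 1 and 2. In ST2KO cells IL-33 array 1 with unstimulated array 2 gave 0.700, and IL-33 array 2 with unstimulated array 1 gave 0.719. In WT cells these values were 0.494 and 0.506. Array 3 correlated negatively with the other numbers, from -0.854 to -0.590. Residuals of a group's 3 arrays sum to 0, so an array 3 set apart alike in both groups gives such signs by itself. The check thus set array 3 apart but hardly told pair 1 from pair 2. No arrays held identical values.

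Named were the 5 rises and 5 falls of smallest p in ST2KO cells (none passed). The 12 largest rises and 6 largest falls of WT cells were also named, among called genes with 3 pairs of one sign. A fixed set was added (Il1rap, Myd88, Il13, Il6, Il4, Tnf, Csf2, Ccl3, Hdc, Kit, Fcer1a, Gata2, Nfkb2, Nfkbiz and Tlr4). For the lists described, some of the members of smallest p or highest level were named. Clone names were left out. The comparison, lists and rules were chosen with earlier results of these data known. Il1rl1 was not analysed here, so the targeted gene was not checked. The steps were tested on simulated data. Alternatives were no block, no background correction, median scaling, the authors' log2 values, other detection filters, the mean of a gene's probes, the compared groups only, other eBayes settings, leaving out arrays or pairs and, chosen after seeing the data, all detected probes. Promoter sequences are from RefSeq tables of GRCm38.p6, and figures were drawn with matplotlib 3.10.9.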

Additional observations from a re-analysis of the deposited data

Results flagged for a closer look

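The responses of the genotypes to IL-33 differed by the test of the difference itself (the interaction in limma) for 1639 genes, and the values below are ST2KO changes minus WT changes on the log2 scale. The genes chosen as the largest WT rises and falls were picked on the same WT arrays, so the sign of their difference is a description. Arpc1a, Etf1 and Ddb1 were picked for small p on the same ST2KO arrays, so their differences are a description too. No cause of any of them was tested.

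Among the genes raised most in WT cells, the difference was -7.08 for Ccl1, -5.98 for Egr2, -5.84 for Il1b, -5.57 for Gadd45b, -5.07 for Csf2 and -4.50 for Traf1. It was -4.65 for Bcl2a1d, -4.37 for Tnf, -4.78 for Ccl5, -3.96 for Tnfrsf9, -4.53 for Bcl2a1b and -4.37 for Ccl3. Csf2 and Tnf read near the detection limit in ST2KO cells, so the sizes of their differences are uncertain. Among the genes lowered most in WT cells, the difference was 2.9997 for Lpcat2, 2.69 for Cited4, 2.56 for Mrvi1, 2.48 for Lrrc36, 2.44 for Pigz and 2.45 for Sult1a1.

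The cytokine genes Il13, Il6 and Il4 had differences of -3.13, -2.94 and -0.80. Il13 read near the detection limit on ST2KO arrays 1 and 2, so the size of its difference is uncertain. The histamine enzyme gene Hdc had -2.19, and the NF-kB genes Nfkb2 and Nfkbiz had -3.07 and -4.03. Arpc1a, Etf1 and Ddb1 had differences of 0.51, -0.70 and -0.63, and their own changes passed in neither genotype.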

How the results depend on the processing

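The ST2KO comparison called 0 genes under all 22 alternatives that bear on it, with 155 to 856 genes or probes at an unadjusted p under 0.05. All 839 alternative values of the 40 named genes stayed uncalled in it, and none of their values in the other comparisons that had passed changed sign. Without the replicate block the ST2KO intervals lay within 2-fold for 54.9% of the genes raised and 58.2% of the genes lowered at least 2-fold in WT cells, against 93.0% and 98% with it. Calls then fell to 1246 in WT cells with IL-33, to 286 for the difference between genotypes (of the 27 named differences that passed, those of Arpc1a, Etf1, Ddb1, Ccl3, Cited4, Mrvi1, Lrrc36, Pigz, Sult1a1 and Il4 were among the 10 lost, and the other 17 passed under every alternative run) and to 1326 for IgE in ST2KO cells. Median scaling moved the median of all genes in WT cells to -0.162 and that of the difference to 0.197. Of the calls, 22.2% were then higher in WT cells against 42.8%, and 80.1% for the difference against 57.4%. The median ST2KO change of the genes raised in WT cells was then 0.0561. Without the arrays numbered 3 the difference passed for 2836 genes. With all 19514 detected probes as features, more features were tested and 5395 passed in WT cells, 2544 for the difference and 5725 for IgE, with 0 for IL-33 in ST2KO cells. Leaving out single arrays or pairs of the groups compared gave 1827 to 3386 calls in WT cells (3704 without ST2KO IgE array 3, which enters their spread), 747 to 2260 for the difference and 2219 to 3383 for IgE. The median ST2KO change of the genes raised in WT cells then ran from -0.00987 to 0.0394, and that of the genes lowered from -0.0869 to -0.00973. The cause of these shifts was not tested. Genes near the detection limit, such as Csf2 and Tnf in ST2KO cells, limit how small a change could be seen.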
